A study of Mus musculus with 6 samples.

Results

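An inflammasome is a protein platform that turns danger signals inside a cell into an inflammatory death. A sensor such as AIM2, which binds cytosolic DNA, or NLRP3, which responds to membrane damage and ion flux, recruits the adaptor ASC (encoded by *Pycard*) and through it caspase-1. Active caspase-1 cuts the precursors of IL-1 beta and IL-18 and frees the pore-forming end of gasdermin D, while the product of mouse *Casp4* (known in mice as caspase-11) senses bacterial lipopolysaccharide in the cytosol and cuts gasdermin D without a sensor of the NLR or AIM2 kind. *Il1rn* encodes the secreted antagonist that occupies the IL-1 receptor. In tissues, macrophages and other myeloid cells are the best known users of this machinery, and it is controlled largely by assembly and cleavage of proteins, which an RNA level does not report.

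The genes described here are those 9 of the 59485 genes in the deposited table: *Aim2*, *Nlrp3*, *Pycard*, *Casp1*, *Casp4*, *Gsdmd*, *Il1b*, *Il18* and *Il1rn*. They were picked by symbol for their roles in this pathway, with earlier results of these data known, and all 9 symbols were found in the table. RNA of whole sciatic nerves was sequenced from 6 mice at postnatal day 4, 3 labelled wild-type and 3 labelled Ht-PA-Cre; Adar1fl/fl;R26R, with 1 library per animal. A Cre recombinase driven in the mutants by the human tissue plasminogen (HtPA) promoter recombines the floxed alleles of *Adar* (the gene of the RNA editing enzyme ADAR1) in neural crest (NC) cells and their descendants, Schwann cells (SCs) included, and R26R is a YFP tracer of recombined cells. By the breeding scheme of the study, wild-type animals also carry 1 or 2 floxed *Adar1* alleles and R26R, and lack Cre. Cells of the nerve that do not come from the NC keep *Adar* in the mutants.

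*Adar* itself had 1602, 2066 and 1133 normalized reads in the 3 control nerves (replicates 1, 2 and 3 here and below) but 11768, 9311 and 9773 in the 3 mutant nerves. This goes against the deletion in the label, and a single value per gene does not separate the floxed exons from the others. The text therefore speaks of control-labelled and mutant-labelled libraries (controls and mutants for short), and each direction below follows those labels. A normalized read is a read counted on the constitutive regions of a gene, divided by a size factor of its library. 1 read was worth 0.727 to 1.27 normalized reads, and the libraries held 50938349 to 78250094 reads on genes. The test was limma's moderated test on log2(value + 1) over the 25802 genes with a mean of at least 10 in at least 1 genotype, two-sided, with Benjamini-Hochberg adjustment over all of them. A gene is said below to have risen or fallen where its unadjusted p was 0.05 or less and its fold change 2 or more, which are the limits of the study's methods. Nothing in the labels says how animals were spread over litters, and p-values measure the spread between these 6 animals.

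The nerve is a mixture, and fewer cells of a type cannot be told apart from less RNA per cell. Summed over 7 SC markers, the level was 1129255 to 1494265 in the control-labelled libraries and 50569 to 205607 in the mutant-labelled ones, and 4 of the 7 fell. The sum of 11 macrophage markers was 19123 to 24131 in control nerves and 15982 to 19479 in mutant nerves. Within that list *Aif1* rose and *Csf1r*, *Cx3cr1*, *Mrc1*, *Cd163* and the joint entry *Lyz2 // Lyz1* fell. The general leukocyte gene *Ptprc* (CD45) had 245 to 377 normalized reads in the controls and 688 to 993 in the mutants, and rose. The 7 markers of T and NK cells summed to 101 to 203 in control nerves and 489 to 702 in mutant nerves, with 5 risen, and *Cd3d*, *Cd8a* and *Ncr1* were at 0 in every control. Neutrophil markers, 10 in number, ranged from 62.4 to 242 in the controls and from 101 to 722 in mutant nerves, and none passed the threshold. For mast cells (8 markers) the sums were 3781 to 11998 and 4329 to 5192 (2 rose and 1 fell), and for B cells (4 markers) 113 to 143 and 68.2 to 95.3 (none passed). For dendritic cells (6 markers) they were 452 to 643 and 438 to 551 (1 fell). Outside the blood lineages, skeletal muscle genes (6 markers) summed to 4021 to 21236 in control nerves and 25772 to 192447 in mutant nerves, highest in mutant replicate 3, and 5 rose. Keratinocyte genes (6 markers) summed to 220 to 284 and 273 to 358, with 3 risen. Erythroid genes (4 markers) summed to 39571 to 55612 and 3820 to 11722, with 3 fallen. Endothelial (5 markers: 11452 to 17876 and 16431 to 22136), fibroblast and perineurial (6 markers: 55736 to 76635 and 59963 to 73726) and adipocyte sums (3 markers: 5267 to 11107 and 3173 to 22773) overlapped between genotypes, with no marker past the threshold. Beside these counts, 13.9% of all tested genes rose and 10.4% fell. Of the risen markers, *Cd8a*, *Ncr1*, *Gzma*, *Fcer1a*, *Krt5*, *Krt14* and *Trp63* had control means under 10 and entered the test only through the mutants. The fallen dendritic marker, *Siglech*, entered only through the controls. The part of these cell types in the values of the inflammasome genes was not tested.

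**Figure D1:**
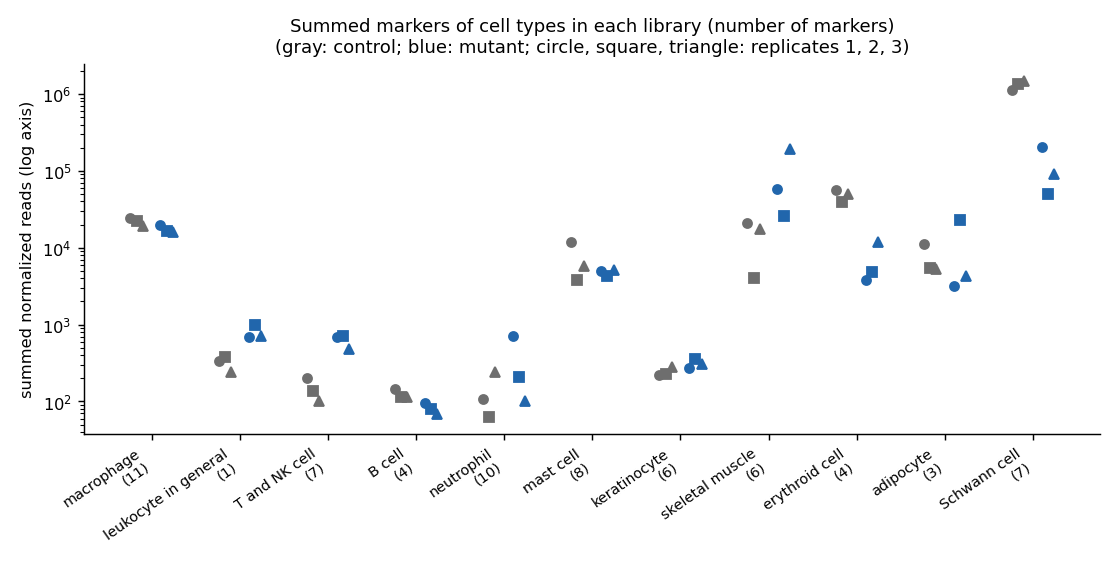
Summed normalized reads of marker genes of 11 cell types in each library, on a log axis; gray points are control-labelled and blue points mutant-labelled libraries, and the shape gives the replicate. The macrophage sums overlap between genotypes, although 5 of the 11 macrophage markers fell and 1 rose. *Ptprc* (leukocyte in general) and the T and NK cell sums are higher in every mutant-labelled library.

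In the mutant-labelled nerves, 7 of the 9 genes rose and none fell: *Casp1*, *Casp4*, *Gsdmd*, *Nlrp3*, *Il1b*, *Il18* and *Il1rn*. Across all 25802 tested genes, 13.9% rose and 10.4% fell. With an adjusted p at or under 0.05 in place of the unadjusted one, 6 of the 9 rose (*Il1b* did not), against 11.5% of all tested genes. For 7 of the 9, every mutant-labelled value lay above every control-labelled value (all but *Aim2* and *Il1b*), which held for 25.9% of tested genes. *Il1b* and *Il1rn* had means under 10 in the controls and entered the test only through the mutants. Of the 7 genes with a mean of at least 10 in both genotypes, 5 rose and none fell, beside 10.8% and 9.93% of the 21753 genes of that kind. The median log2 fold change of the 9 genes was 1.94, and that of all tested genes was 0.03.

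**Figure D2:**
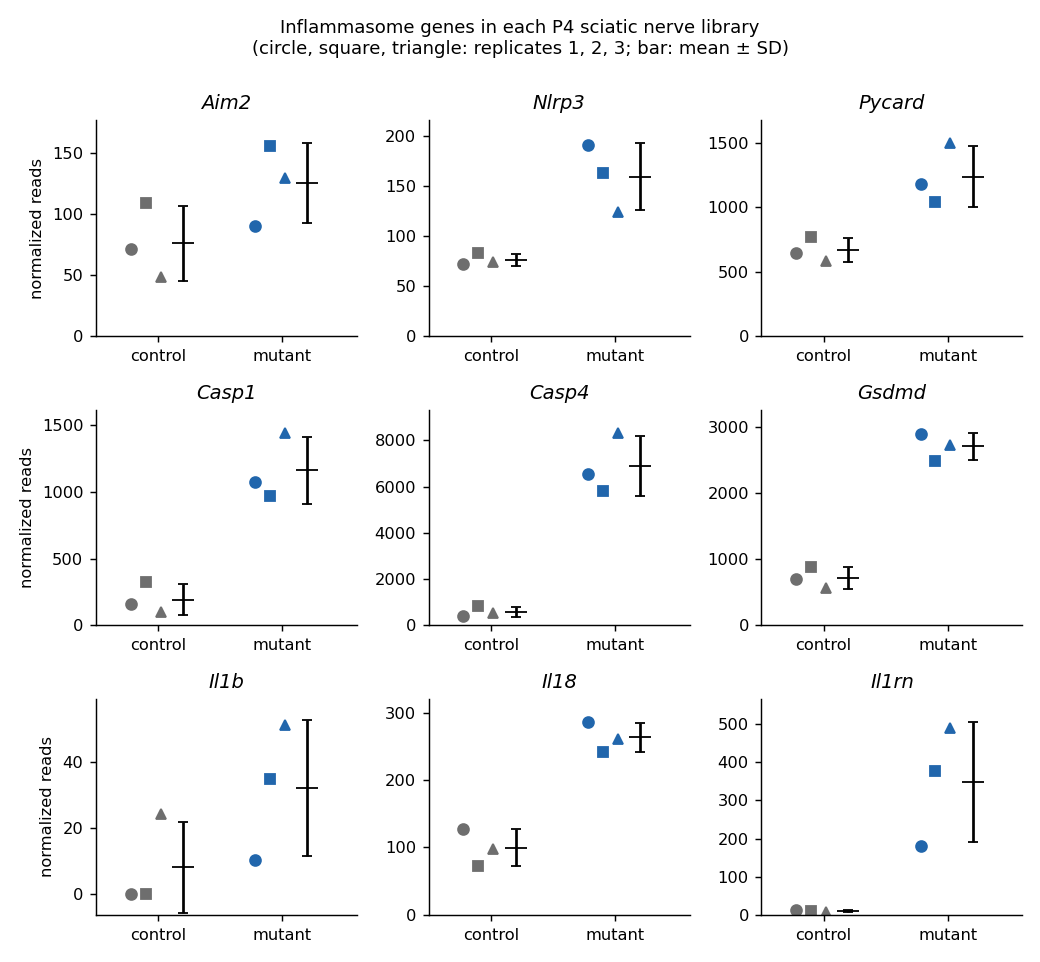
Normalized reads of the 9 inflammasome genes in each library, on linear axes that differ between panels; gray points are control-labelled and blue points mutant-labelled libraries, the shape gives the replicate, and the bar is the mean ± SD of 3 libraries. Groups are separate in 7 panels and overlap for *Aim2* and *Il1b*; the largest ratio of means, 35.7, belongs to *Il1rn*.

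Both sensors had few reads, and their fold changes lay near or under 2-fold. *Nlrp3* (GSMG0005266, mm10 chromosome 11, 59541569 to 59566956, plus strand) had 72.2, 83.2 and 73.5 normalized reads in control nerves and 191, 163 and 124 in mutant nerves. The groups did not overlap, although the lowest mutant was nearer to the highest control than to the highest mutant. The mean went from 76.3 ± 5.99 to 159 ± 33.6 (SD, n = 3), with a log2 fold change of 1.03 (SE 0.29, limma adjusted p = 0.0249). This change sat on the 2-fold limit: it was 0.99 without control replicate 1 and 0.89 without mutant replicate 1, both under it.

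*Aim2* (GSMG0050831, chromosome 1, 173420604 to 173466040, plus strand) had 71.1, 109 and 48.2 normalized reads in control nerves and 90.2, 155 and 130 in mutant nerves. Mutant replicate 1 lay below control replicate 2, so the groups overlapped. The means were 76.0 ± 30.6 and 125 ± 32.8, with a log2 fold change of 0.75 (SE 0.39, limma adjusted p = 0.172), and *Aim2* did not pass. Without control replicate 2, the highest control, the fold change was 1.05 and passed the threshold.

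*Pycard* (GSMG0036719, chromosome 7, 127991373 to 127993867, minus strand), the adaptor that every ASC-dependent inflammasome shares, had 643, 767 and 585 normalized reads in control nerves and 1180, 1038 and 1498 in mutant nerves. All mutant values were above all control values, although the lowest mutant was nearer to the highest control than to the highest mutant. The means were 665 ± 92.9 and 1239 ± 236, and the log2 fold change was 0.89 (SE 0.17, limma adjusted p = 0.0051), which stayed under 2-fold. It was 1.01 without mutant replicate 2, the lowest mutant, and then passed. An unnamed gene on the opposite strand overlaps *Pycard*.

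*Casp1* and *Casp4*, neighbouring genes on chromosome 9, both rose. *Casp1* (GSMG0039109, 5298517 to 5307289, plus strand), which encodes the protease that the inflammasome activates, had 158, 324 and 100.1 normalized reads in control nerves and 1074, 966 and 1444 in mutant nerves. The controls differed among themselves by over 3-fold, with replicate 2 the highest, yet the lowest mutant was well above it. The mean went from 194 ± 116 to 1161 ± 251, 5.99 times as high, with a log2 fold change of 2.72 (SE 0.39, limma adjusted p = 0.0010). With any 1 library left out the fold change lay between 2.33 and 3.18.

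*Casp4* (GSMG0039110, 5308849 to 5336791, plus strand), the cytosolic lipopolysaccharide receptor and gasdermin D protease, had 411, 819 and 526 normalized reads in control nerves and 6521, 5804 and 8327 in mutant nerves. The lowest mutant had over 5 times the reads of the highest control. The mean went from 585 ± 211 to 6884 ± 1300, 11.8 times as high, a log2 fold change of 3.60 (SE 0.25, limma adjusted p = 2.50e-05). Without mutant replicate 3, the library with the most muscle RNA, the fold change was 3.45, and 2.56 for *Casp1*. This does not remove the difference in muscle RNA. The muscle sums of mutant replicates 1 and 2 (57359 and 25772) were also above the highest control (21236).

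*Gsdmd* (GSMG0013288, chromosome 15, 75862327 to 75867406, plus strand), whose product forms the pores of pyroptosis, had 705, 883 and 564 normalized reads in control nerves and 2904, 2494 and 2736 in mutant nerves. Both groups were tight and clearly apart. The mean went from 718 ± 160 to 2711 ± 206, 3.78 times as high, with a log2 fold change of 1.94 (SE 0.17, limma adjusted p = 8.19e-05). It ranged from 1.78 to 2.10 with any 1 library left out.

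The cytokine genes had few reads. *Il18* (GSMG0039506, chromosome 9, 50554700 to 50581841, plus strand), a cytokine precursor that many epithelial and myeloid cells hold ready, had 128, 72.8 and 97.6 normalized reads in control nerves and 286, 242 and 261 in mutant nerves. The lowest mutant was above the highest control. The mean went from 99.3 ± 27.5 to 263 ± 21.9, with a log2 fold change of 1.43 (SE 0.28, limma adjusted p = 0.00468). An unnamed gene on the same strand and *Bco2* and *Tex12* on the other strand overlap *Il18*, and the counting may have assigned shared reads to any of them.

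*Il1b* (GSMG0023522, chromosome 2, 129364577 to 129371142, minus strand), which encodes the other cytokine that caspase-1 matures, was near the limit of detection. Its normalized reads were 0, 0 and 24.1 in control nerves and 10.2, 34.7 and 51.4 in mutant nerves, from 0, 0 and 19 reads and from 14, 36 and 52 reads. Control replicate 3 lay above mutant replicate 1, so the groups overlapped. The means were 8.03 ± 13.9 and 32.1 ± 20.7. The log2 fold change of 3.24 (SE 1.34) passed the unadjusted limit but not with adjustment (limma adjusted p = 0.0954). It also failed without control replicate 1 (2.46), control replicate 2 (2.46), mutant replicate 2 (3.05) or mutant replicate 3 (2.77), and on the recovered reads with edgeR (2.04, adjusted p = 0.348) and DESeq2 (2.02, adjusted p = 0.317). The neutrophil marker sum was highest in mutant replicate 1 (722), the mutant with the least *Il1b*, and highest among controls in replicate 3 (242), the control with the most. The antisense gene *Il1bos* lies on the opposite strand, and whether the counting used strand is not given in the sources used here.

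*Il1rn* (GSMG0020772, chromosome 2, 24336853 to 24351494, plus strand), the antagonist, had the largest ratio of means of the 9. It had 12.2, 9.45 and 7.60 normalized reads in control nerves and 180, 376 and 490 in mutant nerves, from 11, 10 and 6 reads and from 248, 390 and 495 reads. Every mutant was over 10 times the highest control, and the mutants differed among themselves by over 2-fold. The mean went from 9.76 ± 2.32 to 349 ± 156, 35.7 times as high, with a log2 fold change of 4.93 (SE 0.47, limma adjusted p = 0.000125). It ranged from 4.63 to 5.34 with any 1 library left out and was 4.08 with a pseudocount of 10. The fitted fold change of *Il1b* was larger with a pseudocount of 0.1 (5.41, beside 5.05 for *Il1rn*).

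Levels of different genes were compared per kilobase of transcript, for the 7 genes with an annotated coding transcript (GENCODE M21) whose ends lay within 500 bases of the deposited gene's, which left out *Aim2* and *Pycard*. The counted constitutive regions may be shorter than these transcripts. In the controls, *Casp4* (408 ± 147 normalized reads per kb) and *Gsdmd* (400.4 ± 89.4) were highest and overlapped in their values. *Casp1* (130 ± 77.7) and *Il18* (112 ± 31.1) followed and overlapped too, and below them came *Nlrp3* (19.4 ± 1.52), then *Il1b* (5.92 ± 10.3) and *Il1rn* (3.94 ± 0.938), again with overlap. In the mutants, *Casp4* (4797 ± 906) stood above *Gsdmd* (1513 ± 115), *Casp1* (776 ± 167), *Il18* (297 ± 24.8) and *Il1rn* (141 ± 63.2), with no overlap between neighbours in that order. *Nlrp3* (40.5 ± 8.56) and *Il1b* (23.7 ± 15.3) were lowest and overlapped. By its mean *Il1rn* was lowest in the controls, where *Il1b* was at 0 in replicates 1 and 2, and in every mutant it was above both *Nlrp3* and *Il1b*.

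Log2 ratios of normalized reads + 1 within a library depend little on the scaling of the libraries where both genes have many reads, and 5 were compared by an exact two-sided permutation test of their mean, which with 3 libraries against 3 cannot give a p below 0.1. The log2 ratio of *Casp1* to *Casp4* was -1.38, -1.34 and -2.38 in control nerves and -2.60, -2.59 and -2.53 in mutant nerves. The 3 mutants were all below the controls and nearly equal, and the means differed by -0.87 (from -1.70 ± 0.59 to -2.57 ± 0.04, exact permutation p = 0.1, adjusted over 5 ratios p = 0.167). The ratio of *Gsdmd* to *Gsdme* (listed as *Dfna5*), another pore-forming gasdermin, was 1.55, 2.33 and 1.31 in control nerves and 4.44, 3.78 and 3.80 in mutant nerves. It was higher by 2.28 in the mutants (1.73 ± 0.53 and 4.01 ± 0.37, exact permutation p = 0.1, adjusted p = 0.167). *Gsdme* itself had means of 214 ± 34.4 and 169 ± 32.3 normalized reads and did not pass (log2 fold change -0.34, SE 0.25, limma adjusted p = 0.334).

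*Il18bp*, which encodes the soluble protein that captures IL-18, was compared with its ligand. Its log2 ratio to *Il18* was 0.34, 1.38 and 0.67 in control nerves and 2.80, 2.35 and 2.94 in mutant nerves. The ratio was higher by 1.90 in the mutants without overlap (0.80 ± 0.53 and 2.70 ± 0.31, exact permutation p = 0.1, adjusted p = 0.167). For *Il1rn* to *Il1b* the ratio, in which *Il1b* was at 0 in control replicates 1 and 2, was 3.72, 3.39 and -1.54 in control nerves and 4.02, 3.40 and 3.23 in mutant nerves. These overlapped, and the difference of 1.69 (exact permutation p = 0.5, adjusted p = 0.6) rested on control replicate 3: without it the difference was -0.01. The *Aim2* to *Nlrp3* ratio was -0.02, 0.38 and -0.60 in control nerves and -1.07, -0.07 and 0.07 in mutant nerves, a difference of -0.28 (exact permutation p = 0.6, adjusted p = 0.6) that became 0.08 without mutant replicate 1.

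**Figure D3:**
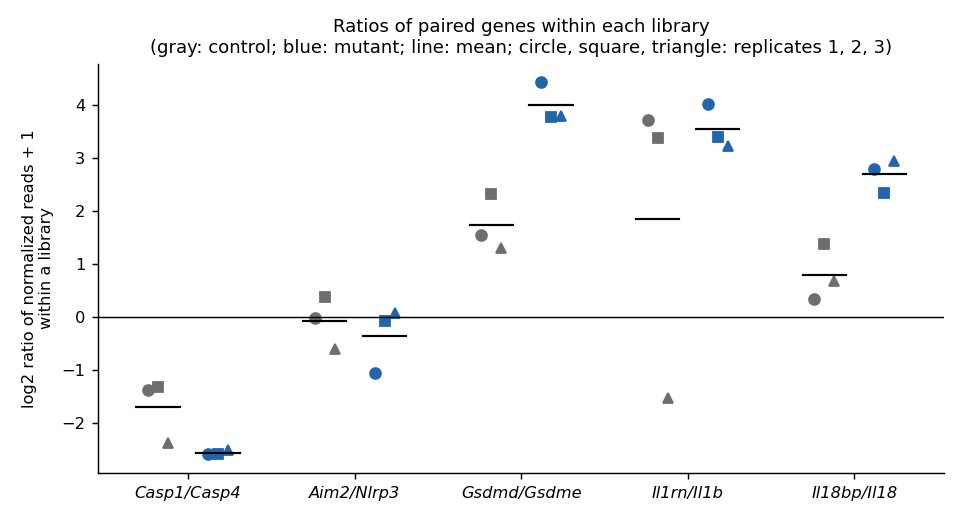
Log2 ratios of normalized reads + 1 for 5 pairs of genes within each library; gray points are control-labelled and blue points mutant-labelled libraries, the shape gives the replicate, and the line is the mean of 3. *Casp1*/*Casp4* is lower and *Gsdmd*/*Gsdme* and *Il18bp*/*Il18* are higher in every mutant-labelled library, and the other two pairs overlap.

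The wider pathway was described with a list of 88 symbols grouped by role, of which 78 were in the table and 65 were tested. Without the 9 genes, 30 of 56 tested genes rose and 1 fell, where 13.9% and 10.4% of all tested genes did. Of the 56, 6 entered the test through the mutants alone, and among the 49 with a mean of at least 10 in both genotypes 27 rose and 0 fell (10.8% and 9.93% of all genes of that kind). Among the other sensors and their partners, 7 of 16 rose, and 5 of the 12 with such a mean. *Nlrp10*, an NLR protein without leucine-rich repeats, went from 7.29 ± 7.62 to 121 ± 38.2 normalized reads (log2 fold change 4.57, limma adjusted p = 0.0074). The NAIP genes encode the receptors that hand bacterial flagellin and secretion-system proteins to NLRC4. *Naip1* went from 8.71 ± 8.92 to 71.9 ± 32.9, *Naip2* from 99.96 ± 15.5 to 332 ± 35.2 and *Naip6* from 61.1 ± 25.1 to 192 ± 61.9, with log2 fold changes of 3.17, 1.73 and 1.67 (limma adjusted p = 0.0128, 0.000785 and 0.0115). *Nlrp10* and *Naip1* had control means under 10 and entered the test only through the mutants. The NAIP genes are close paralogs, and reads can be split between them.

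All 9 tested p200 genes other than *Aim2* rose. This family of interferon-inducible nuclear and cytosolic DNA-binding proteins shares with AIM2 its pyrin or HIN domains. *Mnda* (named *Ifi211* by RefSeq) went from 396 ± 294 to 21727 ± 1165 normalized reads, with a log2 fold change of 6.04 (limma adjusted p = 3.33e-05). *Pydc4* (*Ifi213*), *Pydc3* (*Ifi208*) and *Ifi205* had log2 fold changes of 6.99, 6.47 and 5.79 (limma adjusted p = 0.00324, 0.00023 and 0.000269). The median over the 9 was 5.38, beside 0.75 for *Aim2*. These genes are near-identical in places, and how their shared reads were counted is not given in the sources used here, so the split between them is uncertain.

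*Casp12*, the remaining inflammatory caspase of the mouse cluster, rose from 1765 ± 200.2 to 4890 ± 299 (log2 fold change 1.47, limma adjusted p = 4.66e-05). Among the other caspase genes, *Casp8*, the initiator at death receptors, rose from 1307 ± 214 to 4629 ± 59.7 (log2 fold change 1.84, limma adjusted p = 3.37e-05). *Cflar*, the inhibitor of caspase-8, rose with a log2 fold change of 1.350 (limma adjusted p = 0.00732). *Casp6* and *Casp9*, named after their values were seen, were lower in every mutant than in every control but by less than 2-fold (log2 fold changes -0.99 and -0.73). Of the other gasdermins, 5 were at 0 in every library, and *Gsdmc4* fell from 11.1 ± 7.98 to 0.727 ± 1.26 normalized reads (limma unadjusted p = 0.0374, adjusted p = 0.0892), having entered the test only through the controls.

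Downstream, *Il33*, an alarmin of the IL-1 family that needs no inflammasome, rose from 470 ± 95.2 to 2661 ± 743 (log2 fold change 2.48, limma adjusted p = 0.000127). Of the antagonists, *Il18bp* rose from 170 ± 18.7 to 1750 ± 442 (log2 fold change 3.33, limma adjusted p = 2.04e-05) and *Il1r2*, the decoy IL-1 receptor, from 12.03 ± 4.06 to 97.1 ± 83.9, with mutant values of 45.8, 194 and 51.4 of which replicate 2 was by far the highest (log2 fold change 2.63, limma adjusted p = 0.0148). Of 10 receptor and adaptor genes, 5 rose, and 4 of the 9 with a mean of at least 10 in both genotypes. *Myd88*, the adaptor shared by IL-1, IL-18 and Toll-like receptors, rose from 599 ± 34.4 to 2069 ± 67.5, and *Irak3*, a brake on that pathway, from 244 ± 97.3 to 758 ± 162 (log2 fold changes 1.79 and 1.68, limma adjusted p = 1.77e-05 and 0.00247). *Irak2* had a log2 fold change of 1.07 (limma adjusted p = 0.00146). *Il18r1*, the ligand-binding IL-18 receptor chain, went from 3.27 ± 3.91 to 26.0 ± 18.6, entered the test only through the mutants and missed the adjusted limit (limma adjusted p = 0.0546). Among 6 inhibitors of caspases 3 rose, 2 of them among the 5 with such a mean: *Naip1* as above, *Birc3*, a ubiquitin ligase of the IAP family, and *Serpinb9*, the granzyme B inhibitor. *Birc3* went from 478 ± 114 to 2536 ± 205 and *Serpinb9* from 136 ± 46.7 to 527 ± 177 (log2 fold changes 2.43 and 1.95, limma adjusted p = 3.60e-05 and 0.00233).

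**Figure D4:**
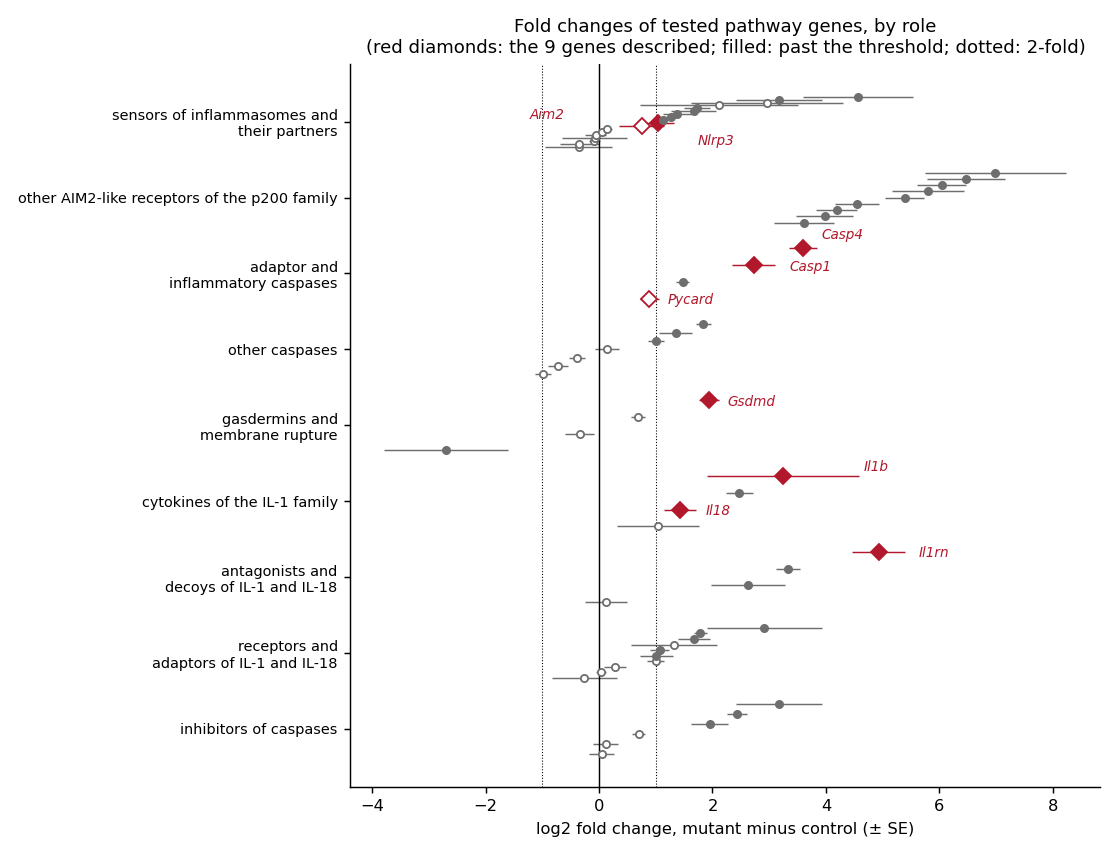
Log2 fold changes (mutant minus control, ± SE) of the 65 tested genes of the pathway list, grouped by role; red diamonds are the 9 inflammasome genes, gray circles the others, filled symbols passed the threshold, and the dotted lines mark 2-fold. The p200 family has the highest median, 5.38, while *Aim2* and *Pycard* are open symbols between 0 and 1.

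*Aim2* lies at the edge of the p200 gene cluster. Measured between starts (the first base of each gene on its own strand), it lies 115 kb before the next tested gene of its cluster on chromosome 1, and all 10 tested genes that start between there and 611 kb downstream rose: *BC094916*, *Pydc4*, *Pyhin1*, *Pydc3*, *AI607873*, *Ifi204*, *Mndal*, *Mnda*, *Ifi203* and *Ifi205*. Their log2 fold changes ran from 3.61 (*AI607873*) to 6.99 (*Pydc4*), beside 0.75 for *Aim2*, and the difference itself was not tested. *BC094916* had a control mean of 0.740, under the value of 1 read, and *Pydc4* had 4.44, 65.2 and 0 in the controls, so both fold changes depend on the pseudocount. On the other side, *Ackr1* and *Cadm3*, whose starts lie at -86.9 and -52.9 kb from that of *Aim2*, fell (log2 fold changes -1.34 and -1.32). The genes beside the cluster were named after their values were seen.

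*Casp4* starts 10.3 kb and *Casp12* 47.0 kb from the start of *Casp1*, and all 3 rose. Around *Il1rn*, which lies in the IL-1 gene cluster of chromosome 2, *Il1f8*, *Il1f6* and *Il1f5* were at 0 in every library. *Il1f9* and *Il1f10* were at 0 in every control and had means of 4.57 and 7.81 normalized reads in the mutants, too few to be tested. *Psd4*, which starts 30.8 kb further on, had a log2 fold change of 0.47 (limma adjusted p = 0.207) and did not pass, nor did the 3 tested neighbours without a symbol.

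**Figure D5:**
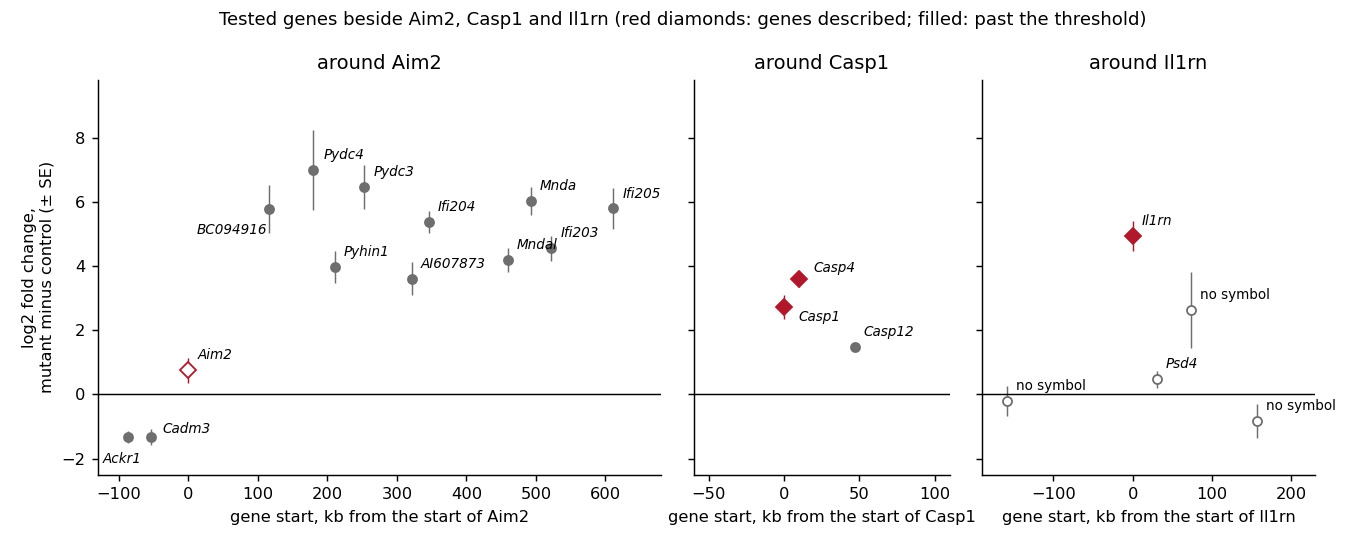
Log2 fold changes (mutant minus control, ± SE) of tested genes against the distance in kb of their start from that of *Aim2*, *Casp1* or *Il1rn*; red diamonds are the inflammasome genes, gray circles their neighbours, and filled symbols passed the threshold. *Aim2* at 0.75 lies below all 10 tested genes downstream of it, *Casp1*, *Casp4* and *Casp12* rose together, and no tested neighbour of *Il1rn* passed.

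Promoter sequence is shown for the genes of these contrasts: *Aim2* and 2 of its p200 neighbours, the caspase pair and *Il1rn*. Each is the 150 bases before a start of the gene in RefSeq (assembly GRCm38.p6, the mm10 build), 5′ to 3′ on the strand of the gene. Where RefSeq gives several starts (2 for *Casp4*, 3 for *Il1rn* and 4 for *Mndal*), the start nearest to that of the deposited gene was used. Capitals mark the core of the interferon-stimulated response element (ISRE), GAAANNGAAA on either strand, which is the site bound by interferon regulatory factors.
Aim2, chr1:173420454-173420603, plus strand: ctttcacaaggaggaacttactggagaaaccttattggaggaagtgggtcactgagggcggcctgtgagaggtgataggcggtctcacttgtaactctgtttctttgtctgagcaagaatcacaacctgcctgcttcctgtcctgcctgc
Mnda (Ifi211), chr1:173913047-173913196, minus strand: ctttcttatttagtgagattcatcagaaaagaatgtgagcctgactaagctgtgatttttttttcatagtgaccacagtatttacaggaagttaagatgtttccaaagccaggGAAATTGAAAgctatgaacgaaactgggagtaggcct
Mndal, chr1:173880188-173880337, minus strand: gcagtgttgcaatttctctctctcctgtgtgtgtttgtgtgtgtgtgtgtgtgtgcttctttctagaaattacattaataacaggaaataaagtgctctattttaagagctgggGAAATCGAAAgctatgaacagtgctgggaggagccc
Casp1, chr9:5298367-5298516, plus strand: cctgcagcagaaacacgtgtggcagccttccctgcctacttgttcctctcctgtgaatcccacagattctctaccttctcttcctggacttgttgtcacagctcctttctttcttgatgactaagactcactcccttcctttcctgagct
Casp4, chr9:5308699-5308848, plus strand: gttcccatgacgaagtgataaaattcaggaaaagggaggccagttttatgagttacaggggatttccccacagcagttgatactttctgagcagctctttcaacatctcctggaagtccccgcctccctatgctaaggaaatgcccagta
Il1rn, chr2:24336710-24336859, plus strand: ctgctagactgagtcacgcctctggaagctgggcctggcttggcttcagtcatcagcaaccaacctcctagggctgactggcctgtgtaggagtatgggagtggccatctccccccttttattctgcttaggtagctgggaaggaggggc

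The table held promoters of 8 of the 9 genes (not *Gsdmd*). In the window of 250 bases before to 50 bases after the start, none of the 8 held GAAANNGAAA, and none held the core TTCNNNGAA of STAT-binding GAS elements, each searched on both strands and counted on its own. Among 9 of the 10 p200 genes in the same table (not *Ifi204*), 6 held GAAANNGAAA and 1 held TTCNNNGAA. Of 32851 promoters of that length, 3.443% and 8.298% held these letters. In *Mndal* and *Mnda* the ISRE core began 36 and 37 bases before the start. Only 1 start per gene was searched, the nearest to that of the deposited gene, and other RefSeq starts were not. A match is a description of letters and not a bound site, and the absence of a match says only that these letters are not in the window.

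Genes with the most similar pattern were sought among 16640 tested genes with a symbol, by the mean absolute difference of log2 values centred on each gene's own mean over the 6 libraries. *Aim2* was nearest to *Ifitm1*, an interferon-induced membrane protein gene (0.0883), and *Itgal*, the alpha chain of the leukocyte integrin LFA-1 (0.118). *Ifitm1* was 339, 623 and 226 in control nerves and 410.2, 697 and 589 in mutant nerves, high in replicate 2 of both genotypes as *Aim2* was. *Casp1* was nearest to *Slamf9* (0.131) and *Tnfrsf14* (0.138), both genes of leukocyte surface receptors. *Gsdmd* was nearest to *Cox18*, which encodes a mitochondrial insertase (0.0495), and *Pvr*, which encodes the adhesion receptor CD155 (0.0738). *Il18* was nearest to *A630033H20Rik* (0.0571) and *Ccdc174* (0.0941). With 6 libraries, many genes that differ between the genotypes by a like amount score as close.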

How the data were processed

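Sciatic nerves of 3 control and 3 mutant mice were sequenced, with groups and replicate numbers taken from the sample labels. The authors deposited a signal for each gene in each library: reads mapped to mm10 with STAR 2.4.0, counted on constitutive regions of FAST DB genes and divided by DESeq2 size factors. Divided by what 1 read was worth in its library, 100% of the values were whole (within 0.01), so reads were recovered. Among genes with 1 to 20 reads, 74.9 to 76.2% had an even number, as when both mates of a pair are counted. Reads on genes per library were 55330839, 68654387 and 50938349 (controls 1 to 3) and 78250094, 59098483 and 57047095 (mutants 1 to 3). Fold changes are on the log2(value + 1) scale, on which those of genes with few reads depend on the pseudocount.

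log2(value + 1) was fitted with limma (eBayes with trend) on all genes with a mean of at least 10 in at least 1 genotype, and adjusted p-values cover all of them. The 9 genes, the pathway list, the ratios and the markers were chosen with earlier results of these data known. Named genes were the 9, *Adar*, both genes of each ratio, up to 4 genes per role with the largest change past the threshold and no overlap, and the 2 nearest genes of *Aim2*, *Casp1*, *Gsdmd* and *Il18*. The fold changes of the 9 genes and the counts of genes past the threshold were recomputed under 13 other settings (pseudocounts, filters, scalings, no trend, adjusted p, edgeR, DESeq2, a replicate block, and sex, since *Xist* exceeded the Y-linked genes in 2 control and 1 mutant libraries) and without each library, and the ratios under 2 other pseudocounts and without each library. No other fold change was recomputed. Scripts were tested on simulated data. Promoters came from RefSeq, and transcript lengths from GENCODE M21. The values of some single genes of the pathway list are not reported here. The study's filter against intergenic reads was not used here. R 4.3.3, limma 3.58.1, edgeR 4.0.16, DESeq2 1.42.0, Python 3.11.15, numpy 2.4.6, pandas 2.3.3 and matplotlib 3.10.9 were used.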

Additional observations from a re-analysis of the deposited data

How the results depend on the processing

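The fold changes of the 9 genes kept their direction under all 13 other settings and with each library left out, wherever the gene was tested. *Casp1*, *Casp4*, *Gsdmd*, *Il18* and *Il1rn* also stayed past the threshold in every case, and between 5 and 8 of the 9 genes passed. *Nlrp3* dropped under 2-fold with a pseudocount of 10 (0.95) and with libraries rescaled to the same 75th percentile (0.96), and ranged from 0.89 to 1.201 with a library left out. *Il1b* lost its call with a pseudocount of 10 (1.34), with no trend in the fit (3.24), with an adjusted p (3.24), with edgeR (2.04) and with DESeq2 (2.02), and ranged from 2.46 to 4.78 with a library left out; at a minimum mean of 50 it was not tested. Rescaling to the same total moved the median over all tested genes from 0.03 to 0.19 on the log2 scale, and *Pycard* (1.05) then passed. With a library left out *Pycard* ranged from 0.74 to 1.01 and *Aim2* from 0.47 to 1.05. The 1 fallen gene of the pathway list, *Gsdmc4*, gave counts of 0 with a pseudocount of 10, a minimum mean of 50 or an adjusted p, and 2 genes fell at the same 75th percentile; the count ranged from 0 to 2 with a library left out. The *Il1rn* to *Il1b* ratio reversed to -0.35 at a pseudocount of 0.1 and ranged from -0.00603 (without control replicate 3) to 2.63 with a library left out. The *Aim2* to *Nlrp3* ratio ranged from -0.54 to 0.0788 (without mutant replicate 1). edgeR on the recovered reads called 5807 genes and DESeq2 6025, beside 6251 with limma. The cause of these changes was not tested.

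Replicate numbers stand for different animals, and deviations of same-numbered libraries correlated at -0.06, -0.06 and 0.01. With 3 libraries a genotype, these values cannot show whether same-numbered animals shared a litter or were processed together. The main fit treated the libraries as unpaired. With a replicate block 7 of the 9 genes rose and 0 genes of the pathway list fell, and no call of the 9 genes changed. With 3 libraries a genotype, counts under about 50 reads, as for *Il1b*, leave the size of a change uncertain.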
